A study of Mus musculus with 14 samples.

Results

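The genes described here encode nuclear subunits of the mitochondrial respiratory chain and ATP synthase. They are the rows of 2 mouse count tables whose symbol begins with Nduf followed by a, b, c, s or v and a digit, with Uqcr, with Cox and a digit from 4 to 8, or with Atp5, together with Sdha, Sdhb, Sdhc and Sdhd. Of the 55335 genes in each table, 90 matched. Of these, 6 carried a pseudogene symbol and 6 more had a mean under 1 CPM (the count of a gene scaled to the size of its library), which left the same 78 genes in both tables. All 78 passed the filter on low counts and were tested in every comparison. The member nearest above the 1 CPM limit was Cox6b2, with a mean of 2.82 CPM in the Chrm3 table and 3.27 CPM in the ageing table. The nearest below it was Cox6a2, with 0.0437 and 0.0791 CPM in the same tables. By complex, the members were 35 of complex I, 4 of complex II, 8 of complex III, 14 of complex IV and 17 of complex V. Ndufa4 was counted with complex IV, where its protein is now placed, and Cox7a2l, a factor that joins complexes III and IV, was counted there too. Atp5s and Atp5sl, which encode no subunit of the enzyme, were matched by symbol alone and kept in complex V.

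The respiratory chain lies in the inner mitochondrial membrane. Complexes I (NADH dehydrogenase) and II (succinate dehydrogenase, also an enzyme of the citric acid cycle) pass electrons to ubiquinone, complex III passes them on to cytochrome c, and complex IV reduces oxygen. The proton gradient that complexes I, III and IV build drives complex V, the ATP synthase. Complex II is encoded wholly in the nucleus, while the others also hold subunits from the mitochondrial genome, so that the transcripts of 2 genomes must be matched. Lgr5-positive intestinal stem cells sit at the crypt base, are rich in mitochondria and rely on respiration more than the Paneth cells beside them.

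The RNA came from mouse intestinal stem cells sorted for EGFP, and the series title names chronic stress and stem cell ageing. In the Chrm3 experiment every mouse carried Lgr5CreERT2-IRES-GFP and Chrm3flox/flox alleles, so the Cre recombinase is driven in Lgr5-expressing cells and Chrm3 encodes the M3 muscarinic receptor. The groups were KO ES, WT ES, KO NT and WT NT with n = 2 each, where KO mice were injected with tamoxifen and WT mice with vehicle 3 days before the procedure abbreviated ES, and NT mice did not have it. Genotype and injected agent therefore cannot be told apart. In the ageing experiment the mice carried Lgr5CreERT2-IRES-GFP and were 18 months (old) or 2 months (young) of age, with n = 3 each. Separate animals per library are not stated in the labels, and the p-values therefore reflect variation among libraries, which may be technical. In bulk RNA of this kind, fewer cells of a type and less RNA per cell cannot be told apart.

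Library totals ran between 26683563 and 36882310 counts in the Chrm3 table and between 32366366 and 35804988 in the ageing table. Chrm3 itself had 256 and 213 counts in KO ES, against 357 and 291 in WT ES, and fell (log2 fold change -0.68 ± 0.17, SE, adjusted p = 0.0363, edgeR). Without ES the KO NT libraries held 343 and 254 Chrm3 counts and the WT NT libraries 355 and 386 (log2 fold change -0.50 ± 0.16, adjusted p = 0.119). When 1 library was left out, the call in ES held in 3 of 8 fits, with adjusted p up to 0.243. Which exon was deleted is not known here, so counts over the whole gene check the KO label weakly. All 11 stem cell markers were detected in both tables, with summed levels between 11341 and 16805 CPM in the Chrm3 libraries and between 12170.5 and 15375 CPM in the ageing libraries. Markers of other cells were present too. Goblet markers summed to between 2538 and 10343 CPM over the Chrm3 libraries, macrophage markers to between 57.0 and 88.5 CPM, and T lymphocyte markers to between 41.6 and 62.8 CPM. Of the macrophage markers, Lyz2 alone had a mean of 58.5 CPM and Cd68 of 4.53 CPM, so that sum was mostly Lyz2. The 3 endothelial markers summed to between 0.242 and 0.758 CPM, with Kdr and Cdh5 at 0 counts in both tables.

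Some libraries stood apart in the members themselves. In the ageing experiment, old replicate 3 had 6 of the 78 members above their mean over all libraries and young replicate 3 had 5, while the other old libraries had 67 and 74 and the other young libraries 58 and 66. The median member lay 0.19 below its table mean on the log2 scale in old replicate 3 and 0.14 below in young replicate 3. Genes of at least 10 CPM with a principal transcript under 1000 bases were also low there, with medians of -0.14 in old replicate 3 and -0.10 in young replicate 3. In the Chrm3 table, KO ES replicate 2 and KO NT replicate 2 were low in members with a short transcript (medians -0.07 and -0.08) and high in those with a transcript of 1000 bases or more (0.03 and 0.05). All genes of at least 10 CPM with short transcripts also had medians of -0.07 and -0.06 in those libraries. KO NT replicate 2 had the largest share of counts from mitochondrially encoded mRNAs, 8.56%, against 5.96% to 7.36% elsewhere. The part of these library differences in the results was not tested. The median of all members and the members' calls are given with and without these libraries. Fold change medians by complex, by part of complex I and by transcript length are given only with all libraries in.

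The promoter windows shown are those of Uqcrc1 and Ndufs8, the members with the smallest p in ES against NT in WT, and of Uqcrfs1 and Ndufv3, the members that passed the test in KO against WT in ES. On GRCm38, Uqcrfs1 (ENSMUSG00000038462) lies on chromosome 13 from 30540308 to 30545362 on the minus strand, and Ndufv3 (ENSMUSG00000024038) on chromosome 17 from 31520115 to 31531331 on the plus strand. Each window runs from 250 bases before to 50 bases after the RefSeq start on GRCm38.p6 and is written 5′ to 3′. Capitals mark matches to the NRF1 motif (GCGCA and GCGC with any 1 base between them), the ETS motif CCGGAAG or the cyclic AMP response element TGACGTCA, on either strand, where NRF1 and the ETS protein GABPA are known activators of respiratory chain genes.
Uqcrc1, chr9:108936398-108936697, plus strand: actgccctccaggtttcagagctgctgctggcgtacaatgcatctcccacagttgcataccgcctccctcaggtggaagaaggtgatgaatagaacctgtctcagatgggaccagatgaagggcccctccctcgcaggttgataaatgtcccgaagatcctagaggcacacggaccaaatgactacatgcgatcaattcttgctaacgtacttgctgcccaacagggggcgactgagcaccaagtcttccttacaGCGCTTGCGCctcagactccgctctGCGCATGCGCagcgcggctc
Ndufs8, chr19:3912725-3913024, minus strand: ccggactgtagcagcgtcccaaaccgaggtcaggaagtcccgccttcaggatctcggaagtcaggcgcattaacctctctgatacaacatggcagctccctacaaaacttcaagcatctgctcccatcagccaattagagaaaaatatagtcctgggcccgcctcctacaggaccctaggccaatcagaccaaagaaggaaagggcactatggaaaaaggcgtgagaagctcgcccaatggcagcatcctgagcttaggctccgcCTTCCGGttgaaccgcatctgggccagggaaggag
Uqcrfs1, chr13:30545267-30545566, minus strand: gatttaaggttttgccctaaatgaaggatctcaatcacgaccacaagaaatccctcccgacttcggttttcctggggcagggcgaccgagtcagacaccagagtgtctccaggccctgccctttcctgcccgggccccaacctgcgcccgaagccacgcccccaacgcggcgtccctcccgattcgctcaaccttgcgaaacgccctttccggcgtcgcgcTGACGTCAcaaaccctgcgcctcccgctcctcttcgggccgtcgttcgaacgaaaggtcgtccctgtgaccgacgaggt
Ndufv3, chr17:31519865-31520164, plus strand: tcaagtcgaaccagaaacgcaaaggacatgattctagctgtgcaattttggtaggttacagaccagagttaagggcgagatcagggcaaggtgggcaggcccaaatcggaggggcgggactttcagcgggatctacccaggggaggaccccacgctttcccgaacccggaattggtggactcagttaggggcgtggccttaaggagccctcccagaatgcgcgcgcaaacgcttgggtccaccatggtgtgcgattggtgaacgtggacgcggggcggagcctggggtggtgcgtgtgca
Uqcrc1 held 2 NRF1 matches, Ndufs8 held 1 ETS match, Uqcrfs1 held 1 cyclic AMP response element, and no capitals appear in the Ndufv3 window because none of these letters, nor the YY1 motif AAGATGGC, was found in it. Of the 78 members, 64 had a window in the RefSeq table, with 69 windows in all. NRF1 letters were found in 26.1% of these windows and in 4.6% of all 32851 windows. ETS letters were found in 23.2% of member windows and 8.86% of all, YY1 letters in 13% and 2.75%, and the cyclic AMP response element in 5.8% and 1.79%. A match is a description of the letters and not a shown binding site.

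Per kilobase of principal transcript, complex I members had the lowest median level in the Chrm3 table, 76.4 CPM per kb, and the medians of the other complexes lay between 164 (complex II) and 199.5 (complex IV) CPM per kb. The highest single levels were those of Atp5b and Atp5a1, the catalytic beta subunit and the alpha subunit of the ATP synthase head, at 1023 and 629 CPM per kb. In complex II, Sdha, the flavoprotein that oxidises succinate, was highest at 223 CPM per kb. In complex III, the hinge protein gene Uqcrh was highest at 383 CPM per kb, and in complex IV Cox4i1, the ubiquitous form of subunit 4, at 502 CPM per kb. The ageing table gave the same gene as the highest of each of complexes II to V. Complex V members made up 43.9% to 45.1% of the summed CPM of the members in the Chrm3 libraries, complex I 20.6% to 20.8%, complex IV 13.9% to 15.5%, complex III 10.7% to 11.3% and complex II 8.67% to 9.56%.

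**Figure D1:**
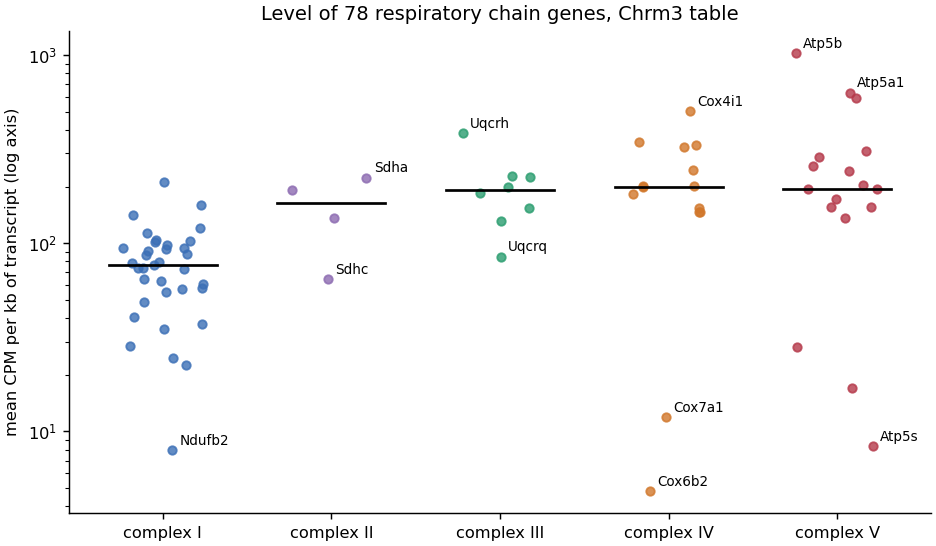
Mean level over the 8 Chrm3 libraries in CPM per kb of principal transcript (log axis) for each of the 78 genes, one point per gene, by complex; the line is the median of the complex. Complex I has the lowest median, 76.4 CPM per kb, and Atp5b stands highest at 1023 CPM per kb.

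Paralogs differed widely in level. Of the subunit 7a genes, Cox7a2, the common form, had a mean of 154 CPM per kb in the Chrm3 table, Cox7a2l 146 and Cox7a1, the heart and muscle form, 11.9. Of subunit 6b, Cox6b1 had 343 CPM per kb and Cox6b2, the form of testis, 4.82. The muscle forms Cox6a2 and Cox8b, the lung form Cox4i2, the testis forms Cox8c and Cox7b2, and Ndufa4l2 were the 6 genes under 1 CPM, so Cox6a1, Cox4i1 and Ndufa4 were counted nearly alone of their pairs. Among the genes for the c-ring of ATP synthase, which encode the same mature protein, Atp5g3 had 592 CPM per kb, Atp5g2 136 and Atp5g1 27.99. The principal transcript of Atp5g1 is 4715 bases long, which lowers its level per kb, and its level in CPM was 132.

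ES against NT in WT asked how the procedure changed stem cells with intact Chrm3. Nearly every member had a small positive fold change, and none passed the test. A total of 71 of 78 members had a log2 fold change above 0, where 49.3% of all 17364 tested genes did, and their median was 0.12, against -0.00 over all tested genes. The median was 0.13 in complex I (31 of 35 above 0), 0.12 in complex II (4 of 4), 0.15 in complex III (8 of 8), 0.15 in complex IV (13 of 14) and 0.10 in complex V (15 of 17). By edgeR's quasi-likelihood test with Benjamini-Hochberg adjustment over all tested genes, 0 members rose and 0 fell, where 2.1% of all genes rose and 1.39% fell. At an unadjusted p under 0.05, 21 members were higher and 0 lower, against 9.61% and 8.97% of all genes. DESeq2 passed 6 members, all higher (4.67% of all genes higher, 2.85% lower), and limma-voom 0 (1.85% and 1.19%).

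**Figure D2:**
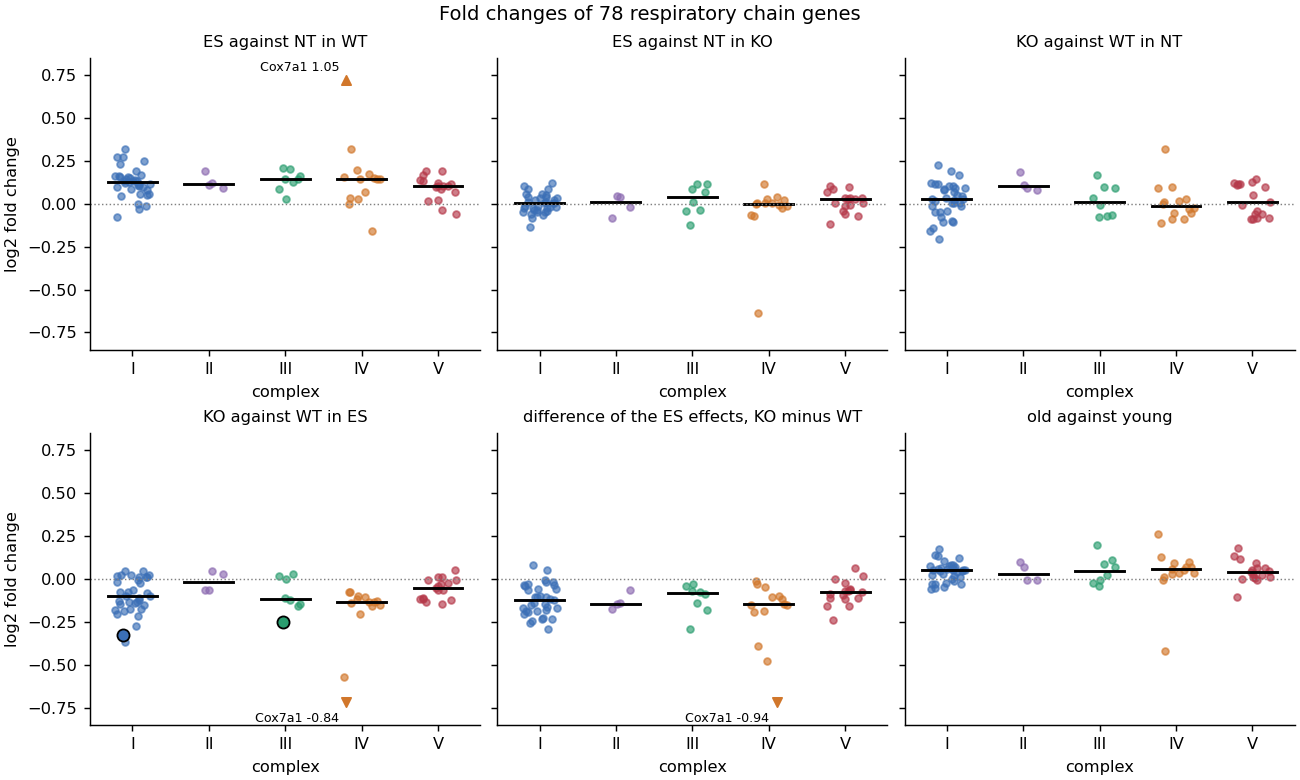
Log2 fold change of the 78 genes in each of the 6 comparisons, one point per gene by complex, with the median of each complex as a line; outlined points passed the adjusted p of 0.05 and triangles mark genes beyond the axis, with their value. In ES against NT in WT 71 of 78 lie above 0 with none outlined, and in KO against WT in ES 17 do, with Uqcrfs1 and Ndufv3 outlined below 0.

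The values of single members show how small the shifts were. Uqcrc1, a core protein of complex III, had 419 and 403 CPM in WT ES, against 357 and 353 CPM in WT NT. Ndufs8, an iron-sulfur core subunit of complex I, had 89.7 and 84.0 CPM in WT ES, against 72.2 and 71.5 CPM in WT NT. Both WT ES libraries lay above both WT NT libraries for these genes. The log2 fold change was 0.21 ± 0.06 for Uqcrc1 (SE, adjusted p = 0.0665) and 0.27 ± 0.07 for Ndufs8 (adjusted p = 0.0733), with 95% intervals of 0.09 to 0.34 and 0.11 to 0.44. Of complex V, Atp5o, the peripheral stalk subunit OSCP, had 257 and 250.2 CPM in WT ES, against 224 and 220.4 CPM in WT NT (0.19 ± 0.05, adjusted p = 0.0824). A second identifier that also bears the symbol Atp5o overlaps 12.3% of its exon bases, so its count is uncertain. Of complex IV, Cox7a2l had 184 and 152 CPM in WT ES, against 133 and 135 CPM in WT NT (0.32 ± 0.09, adjusted p = 0.0915). Of complex II, Sdhb, the iron-sulfur subunit, had 169.8 and 160.3 CPM in WT ES, against 143 and 145 CPM in WT NT (0.19 ± 0.06, adjusted p = 0.0995). The groups did not overlap for any of these 5 genes, and none of the 5 passed.

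The largest fold change in WT was that of Cox7a1, at 6.76 and 7.93 CPM in WT ES, against 3.49 and 3.56 CPM in WT NT (1.05 ± 0.34, adjusted p = 0.126), and the lowest was that of Cox6b2 (-0.16 ± 0.22). Groups did not overlap for 65 members higher in WT ES (26% of all genes) and for 3 lower (26.9%). The 95% interval of the fold change lay within 1.5-fold in either direction for 76 members. Cox4i1 had 409 and 400.1 CPM in WT ES, against 399.8 and 394 CPM in WT NT (0.03 ± 0.05), so the member with the highest level in complex IV had one of the smallest shifts. The flavoprotein genes Ndufv1 (0.08 ± 0.07) and Sdha (0.12 ± 0.07), the largest core subunit Ndufs1 (0.13 ± 0.08), Atp5a1 (0.10 ± 0.05) and Atp5b (0.12 ± 0.06) were also positive and did not pass, nor did Uqcrfs1 (0.14 ± 0.06) or Cox5a (0.17 ± 0.07). Of the paralogs, Cox7a2 (0.20 ± 0.10), Cox6a1 (0.07 ± 0.06) and Ndufa4 (0.16 ± 0.06) did not pass either. Atp5g3 had 473 and 441 CPM in WT ES, against 399 and 399.9 CPM in WT NT (0.19 ± 0.06, adjusted p = 0.0878), while Atp5g2 had 102 and 101 CPM in WT ES, against 105 and 104 CPM in WT NT (-0.04), so the c-ring genes differed in sign.

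Transcript length did not separate these members, with a median of 0.13 for the 45 whose transcript is under 1000 bases and 0.12 for the other 33. All genes of at least 10 CPM had medians of 0.00 and -0.01 in the same length classes. The count of calls depended on libraries outside the comparison, which are part of the same fit, and the cause was not tested. With only the 2 groups compared, 15 members rose (6.63% of all genes), among them Uqcrc1, Ndufs8, Atp5b, Sdha and Cox7a1. The members' median was 0.13 in that fit and 0.13 without KO NT replicate 1. It was 0.14 without KO NT replicate 2, and 0.13 with KO ES and KO NT replicate 2 both left out. Cell type markers moved with this comparison. Goblet markers (8 genes) summed to 10131 to 10343 CPM in WT ES, against 4988 to 5103 CPM in WT NT, absorptive enterocyte markers (11 genes) to 2434 to 2739 CPM against 1819 to 1837 CPM, and stem cell markers to 11341 to 11725 CPM against 14583 to 14896 CPM. Lgr5 fell (-0.46 ± 0.08, adjusted p = 0.0152). Paneth markers (8 genes) summed to 10321 to 10957 CPM in WT ES, against 8628 to 8684 CPM in WT NT. Enteroendocrine markers (8 genes) summed to 257 to 272 CPM in WT ES, against 151 to 165 CPM in WT NT. The part of these cell types in the members' shift was not tested.

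**Figure D3:**
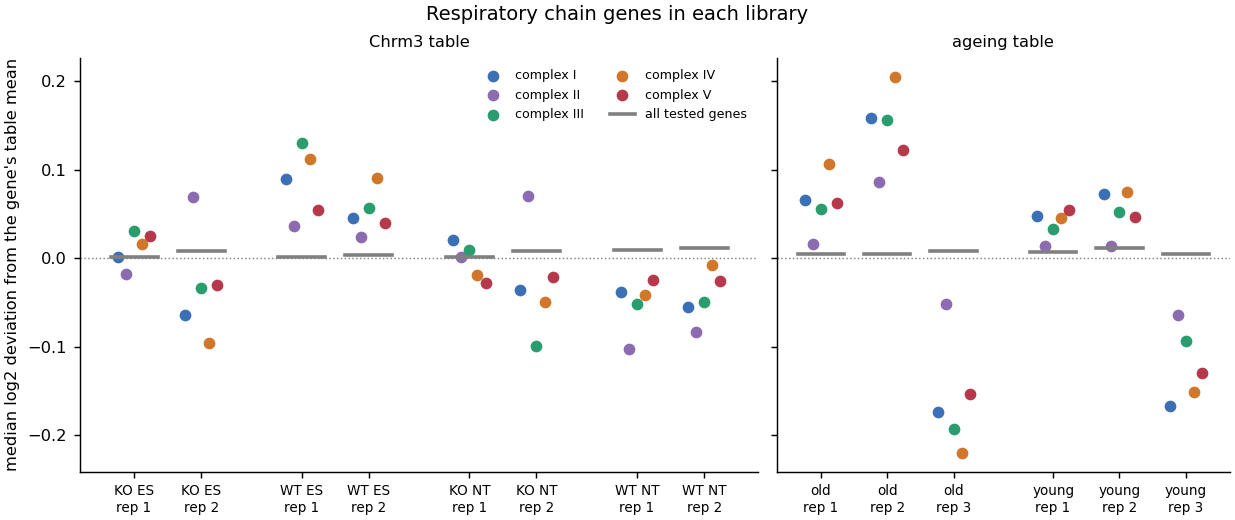
Median log2 deviation of the genes of each complex from their mean over the table (y axis) in each library, KO ES, WT ES, KO NT and WT NT on the left and old and young on the right; grey bars are the median of all tested genes. Both WT ES libraries have all 5 complexes above 0 and both WT NT libraries have all 5 below 0, and replicate 3 of old and of young lies below 0 in every complex.

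ES against NT in KO asked the same of stem cells from tamoxifen-injected mice, and here the members were centred on 0. Fold changes above 0 were found for 43 members (49.3% of all genes), with a median of 0.01 against -0.00 over all genes. The medians were 0.01 in complex I, 0.01 in complex II, 0.04 in complex III, 0.00 in complex IV and 0.03 in complex V. Without KO ES replicate 2 the median of all members was 0.03 with 51 above 0, and without KO NT replicate 2 it was -0.003 with 36 above 0. With both of these libraries left out it was 0.01 with 44 above 0. EdgeR passed 0 members in either direction (0.415% of all genes higher, 0.0979% lower), with 0 higher and 1 lower at an unadjusted p under 0.05, against 4.61% and 3.99% of all genes. DESeq2 passed 0 members (0.991% of all genes higher, 0.482% lower), as did limma-voom (0.397% and 0.0346%). The 95% interval of the fold change lay within 1.5-fold in either direction for 76 members. The member with the smallest p, Cox6b2, had 2.13 and 1.84 CPM in KO ES, against 3.29 and 2.85 CPM in KO NT (-0.64 ± 0.22, adjusted p = 0.397). By complex, the smallest p values after it belonged to Uqcrb of complex III (-0.12 ± 0.06), Ndufa5 of complex I (-0.14 ± 0.07), Atp5j of complex V (0.09 ± 0.05) and Sdhc, a membrane anchor of complex II (-0.08 ± 0.06), with adjusted p between 0.613 and 0.788. Uqcrc1 had 380.3 and 363 CPM in KO ES, against 363 and 345 CPM in KO NT (0.07 ± 0.06), and Atp5b 1918 and 2078 CPM in KO ES, against 1905 and 2075 CPM in KO NT (0.01 ± 0.06). For Atp5b both replicate 2 libraries were high and both replicate 1 libraries low, so the groups overlapped. Ndufs1 was at -0.06 ± 0.08, Sdha at -0.02 ± 0.07, Sdhb at 0.05 ± 0.06, Cox4i1 at -0.00 ± 0.05 and Atp5a1 at -0.01 ± 0.05, and the highest fold change was that of Ndufb4, a beta subunit of complex I (0.12 ± 0.11). Groups did not overlap for 6 members higher in KO ES (17.1% of all genes) and 6 lower (16.1%). Goblet markers rose here as they did in WT, with 7 of 8 passing (median 0.74) against 8 of 8 in WT (median 0.89). Of the Paneth markers 3 of 8 rose (median 0.52), and of the enterocyte markers 3 of 11 fell (median -0.58). The enterocyte sums overlapped, at 1521 to 1778 CPM in KO ES and 1633 to 2359 CPM in KO NT. The median log2 deviation of these markers from the table mean was -0.26 in KO NT replicate 1 and 0.43 in KO NT replicate 2. In the KO ES libraries it was -0.44 and -0.28. The part of these cell types in the members' values was not tested.

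The ES effect in KO minus that in WT tests whether ES moved the members differently in the 2 genotypes. It was negative for 74 members and above 0 for 4 (51.7% of all genes above 0), with a median of -0.11 against 0.01 over all genes. All complexes had negative medians, between -0.08 in complexes III and V and -0.15 in complex IV. By edgeR 0 members passed in either direction (0.0115% of all genes higher, 0.0979% lower), and 7 were lower and 0 higher at an unadjusted p under 0.05 (6.2% of all genes lower, 5.31% higher). DESeq2 passed 0 (0.368% of all genes higher, 1.07% lower), and limma-voom 0 (0% and 0.0461%). The smallest p was that of Uqcrb, the ubiquinol-binding subunit of complex III, at -0.29 ± 0.08 (adjusted p = 0.221). Its level was 95.3 and 96.0 CPM in KO ES against 105 and 103 CPM in KO NT, and 104 and 104 CPM in WT ES against 90.2 and 95.3 CPM in WT NT. Atp5g3 followed in complex V (-0.24 ± 0.08, adjusted p = 0.291), then Cox7a2l in complex IV (-0.39 ± 0.13, adjusted p = 0.300), Ndufa5, a supernumerary subunit of complex I (-0.25 ± 0.10, adjusted p = 0.381), and Sdhc (-0.17 ± 0.08, adjusted p = 0.437). Among the core members Uqcrfs1 was at -0.18 ± 0.08, Ndufs1 at -0.18 ± 0.11, Sdha at -0.14 ± 0.10, Cox4i1 at -0.03 ± 0.07 and Atp5b at -0.11 ± 0.09. Cox7a1 had the lowest value (-0.94 ± 0.50) and Ndufa6 the highest (0.08 ± 0.11). The 95% interval lay within 1.5-fold for 74 members. This difference shares its WT and KO libraries with the comparisons above and is not independent of them. With KO ES and KO NT replicate 2 both left out its median was -0.12 with 9 members above 0. Without KO ES replicate 2 alone the median was -0.10 with 18 above 0, and without KO NT replicate 2 alone -0.17 with 7 above 0.

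KO against WT in NT compared the genotypes without ES. Members lay on both sides of 0, with 47 of 78 above it (47.8% of all genes) and a median of 0.02, or -0.01 when counts were scaled by library totals alone, against -0.01 over all genes. Complex II had a median of 0.10 with its 4 genes all positive, while the medians of the other complexes lay between -0.01 and 0.03. EdgeR passed 0 members (2.36% of all genes higher, 2.11% lower), with 7 higher and 1 lower at an unadjusted p under 0.05, against 8.64% and 9.05% of all genes. DESeq2 passed 1, higher (2.98% of all genes higher, 2.41% lower), and limma-voom 0 (2.11% and 1.97%). Cox7a2l had 167 and 167 CPM in KO NT, against 133 and 135 CPM in WT NT (0.32 ± 0.09, adjusted p = 0.0924), and was the member DESeq2 passed. Ndufs1 had 202 and 232 CPM in KO NT, against 183 and 188 CPM in WT NT (0.23 ± 0.08, adjusted p = 0.143). Sdha had 645 and 706 CPM in KO NT, against 589 and 598 CPM in WT NT (0.19 ± 0.07, adjusted p = 0.206). For Ndufs1 and Sdha the groups did not overlap, and KO NT replicate 2 was the higher KO library. Uqcrb (0.17 ± 0.06, adjusted p = 0.160) and Atp5a1 (0.12 ± 0.05, adjusted p = 0.271) were the first of complexes III and V, and the lowest fold change was that of Ndufa6 (-0.20 ± 0.08, adjusted p = 0.196), at 50.7 and 57.5 CPM in KO NT, against 64.3 and 60.3 CPM in WT NT.

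Here members split by transcript length. The 33 members with a transcript of 1000 bases or more had a median of 0.09 with 26 above 0, and the 45 shorter ones a median of -0.02 with 21 above 0. All genes of at least 10 CPM showed medians of -0.00 and -0.05 in the same classes, with 37.8% of the short ones above 0. Without KO NT replicate 1 the median of all members was -0.03 and Ndufs1 passed (adjusted p = 0.0314), and without KO NT replicate 2 the median was 0.05 and 0 members passed. Groups did not overlap for 25 members higher in KO NT (22.7% of all genes) and 14 lower (25.4%). The core members Uqcrc1 (-0.01 ± 0.06), Uqcrfs1 (-0.07 ± 0.06), Ndufv1 (0.07 ± 0.07), Sdhb (0.08 ± 0.06), Cox5a (0.09 ± 0.07), Cox4i1 (-0.11 ± 0.05) and Atp5b (0.11 ± 0.06) did not pass. Goblet markers fell in KO NT, 8 of 8 with a median of -0.94, as did 6 of 6 tuft cell markers (median -1.28) and 2 each of 8 Paneth, 8 enteroendocrine and 11 stem cell markers. Their part in the members' values was not tested.

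KO against WT in ES compared the genotypes after the procedure, and this was the only one of the 6 comparisons in which members passed by edgeR. Uqcrfs1, the Rieske iron-sulfur protein of complex III, had 169.5 and 165 CPM in KO ES, against 202 and 195 CPM in WT ES, with a log2 fold change of -0.25 ± 0.06 (SE, adjusted p = 0.0283), and so fell. Ndufv3, an accessory subunit of the NADH-binding arm of complex I, had 45.6 and 38.6 CPM in KO ES, against 52.9 and 52.8 CPM in WT ES, and fell too (-0.33 ± 0.08, adjusted p = 0.0406). As the plot of single genes by library shows, both KO ES libraries lay below both WT ES libraries for each gene, and the 2 KO ES libraries differed more for Ndufv3 than the 2 WT ES libraries did. Of all genes 4.47% fell and 3.09% rose, so 2 of 78 members fallen and 0 risen is a share below the background. DESeq2 passed 3 members, all lower and including Ndufa1 (6.34% of all genes lower, 4.92% higher), and limma-voom 2 (4.33% and 2.81%).

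Fold changes above 0 were found for 17 of the 78 members (50.5% of all genes), with a median of -0.10 against 0.00 over all genes. None of the 14 members of complex IV was above 0 (median -0.13), while complex III had a median of -0.12, complex I of -0.10, complex V of -0.05 and complex II of -0.02. Within complex I the 7 core subunits had a median of 0.01 with 5 above 0, the 18 alpha and other supernumerary subunits a median of -0.13 with 3 above 0, and the 10 beta subunits a median of -0.11 with 1 above 0. Groups did not overlap for 45 members lower in KO ES (26.3% of all genes) and 0 higher (27%). At an unadjusted p under 0.05, 14 were lower and 0 higher, against 11.7% and 11.3% of all genes. Ndufa1, a membrane subunit of complex I, had 24.9 and 22.9 CPM in KO ES, against 32.4 and 29.1 CPM in WT ES (-0.37 ± 0.10, adjusted p = 0.0564). Cox4i1 had 375 and 359.9 CPM in KO ES, against 409 and 400.1 CPM in WT ES (-0.14 ± 0.05, adjusted p = 0.141). Cox7a1, with the lowest fold change, had 2.603 and 5.45 CPM in KO ES, against 6.76 and 7.93 CPM in WT ES (-0.84 ± 0.33, adjusted p = 0.155). The KO ES libraries were far apart for Cox7a1, and its value was -0.42 without KO ES replicate 1 and -1.49 without KO ES replicate 2. The first members of complexes V and II were Atp5l, a membrane subunit of the synthase (-0.13 ± 0.06, adjusted p = 0.226), and Sdhc (-0.06 ± 0.06, adjusted p = 0.569).

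Several large core members stayed near 0 between KO ES and WT ES, among them Ndufs1 (0.04 ± 0.08), Ndufv1 (0.01 ± 0.07), Sdha (0.04 ± 0.07), Atp5a1 (0.01 ± 0.05) and Atp5b (-0.01 ± 0.06). For some of them the KO ES libraries lay apart, as for Sdha, with 620 and 714 CPM in KO ES, against 650 and 643 CPM in WT ES. With 1 library left out, the log2 fold change ran from -0.06 to 0.14 for Sdha, -0.03 to 0.12 for Ndufs1 and -0.06 to 0.05 for Atp5b. Other core members were negative, with Uqcrc1 at -0.15 ± 0.06, Cox5a at -0.10 ± 0.07 and Sdhb at -0.06 ± 0.06, and the highest fold change was that of Atp5g1 (0.05). Cox6b2 had 2.13 and 1.84 CPM in KO ES, against 2.86 and 3.03 CPM in WT ES (-0.57 ± 0.23, adjusted p = 0.173). Members with a transcript under 1000 bases had a median of -0.12 with 4 of 45 above 0, and longer ones -0.02 with 13 of 33 above 0. All genes of at least 10 CPM had medians of -0.04 and 0.02 in these classes, so short transcripts as a whole were also lower. By library, the median deviation of the shorter members from the table mean was 0.02 and -0.07 in KO ES, against 0.10 and 0.07 in WT ES. For the longer members it was 0.01 and 0.03 in KO ES, against 0.05 and 0.02 in WT ES. All short genes of at least 10 CPM had 0.04 and -0.07 in KO ES, against 0.05 and 0.02 in WT ES, so their lower level rested on KO ES replicate 2. Without KO ES replicate 2 the members' median was -0.06, 12 were above 0, and neither call held, with adjusted p = 0.165 for Uqcrfs1 and 0.273 for Ndufv3. Both calls were also lost without WT ES replicate 1 (0.173 and 0.168), WT ES replicate 2 (0.105 and 0.182), WT NT replicate 1 (0.0723 and 0.0903) or WT NT replicate 2 (0.0725 and 0.0913), and with no filter on low counts (0.0690 and 0.124). With KO ES and KO NT replicate 2 both left out the median was -0.05, Uqcrfs1 (-0.22, adjusted p = 0.0472) and Cox7a1 (-1.48, adjusted p = 0.00282) fell, and Ndufv3 did not pass. Without KO ES replicate 1, Uqcrfs1 was lost (0.0660) and Ndufv3 held (0.0209), and without either KO NT library both held. Goblet markers summed to 4324 to 4363 CPM in KO ES, against 10131 to 10343 CPM in WT ES, enterocyte markers to 1521 to 1778 CPM against 2434 to 2739 CPM, and stem cell markers to 14428 to 15182 CPM against 11341 to 11725 CPM. Olfm4 weighed most in the stem cell sum, with 11578 and 10872 CPM in KO ES, against 8312 and 7970 CPM in WT ES. Msi1 (0.47 ± 0.07) and Axin2 (0.34 ± 0.06) rose as Olfm4 did (0.46 ± 0.07), and Lgr5 did not pass (0.16 ± 0.08, adjusted p = 0.270). Tuft cell markers summed to 41.7 to 46.0 CPM in KO ES, against 84.5 to 85.1 CPM in WT ES. Enteroendocrine markers summed to 151 to 158 CPM in KO ES, against 257 to 272 CPM in WT ES, while the Paneth sums overlapped. The part of these cell types in the members' difference was not tested.

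**Figure D4:**
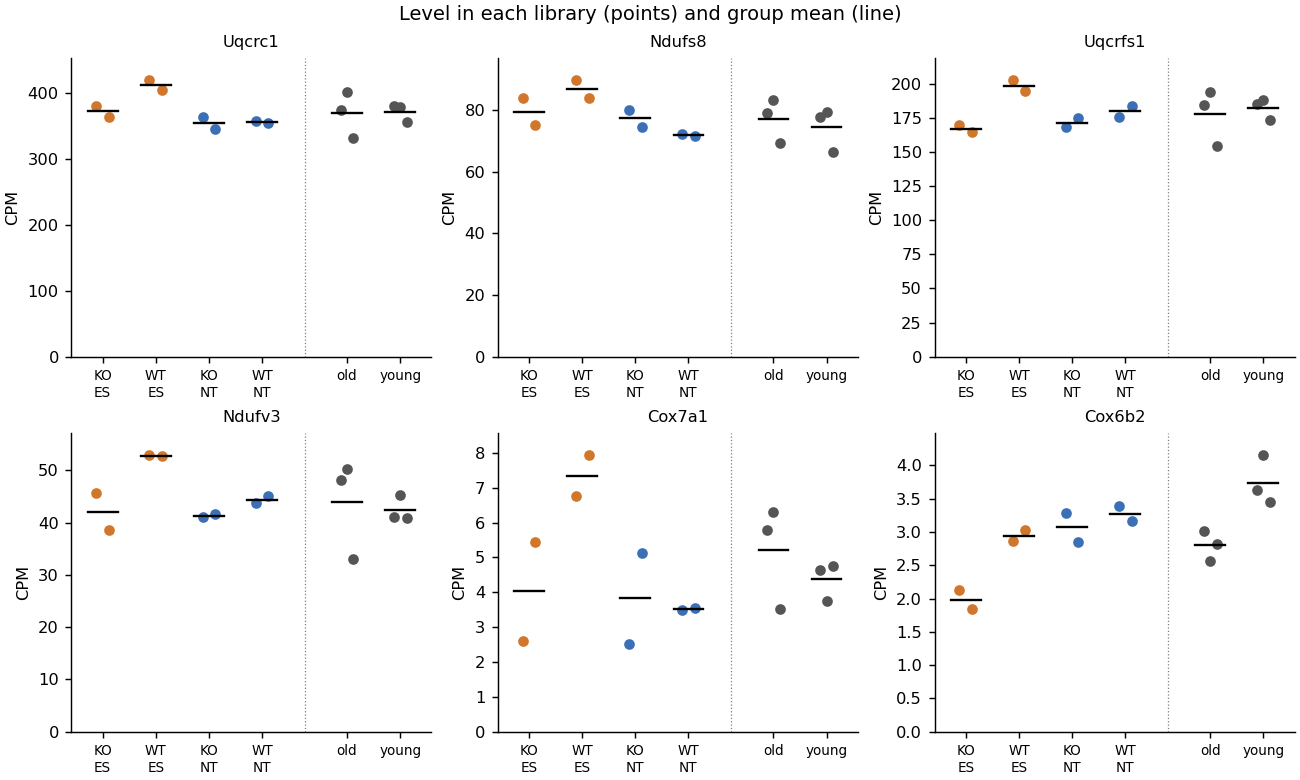
Level in CPM (y axis, from 0) of 6 members in each library, with the group mean as a line, for KO ES, WT ES, KO NT and WT NT and, right of the dotted line, old and young from a separately scaled table. Uqcrfs1 and Ndufv3 are highest in both WT ES libraries of the Chrm3 table, and the KO libraries of Cox7a1 scatter between 2.53 and 5.45 CPM.

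Old against young asked whether age changed the members. No member passed in either direction by edgeR (4.42% of all genes rose, 3.42% fell), with 1 higher and 0 lower at an unadjusted p under 0.05 (10.9% and 10.6% of all genes). DESeq2 passed 0 (5.5% of all genes higher, 4.38% lower), and limma-voom 0 (4.02% and 3.04%). Of the 78, 59 were above 0 (49.8% of all genes) with a median of 0.05 against -0.00 over all genes, and the complexes had medians between 0.03 in complex II and 0.06 in complex IV. This direction rested on single libraries. The median was 0.14 with 74 members above 0 without old replicate 3, -0.04 with 23 above 0 without old replicate 2, and -0.02 with 25 above 0 without young replicate 3. With replicate 3 of both groups left out, the median was 0.07 with 69 above 0, and Uqcrq, Ndufa4 and Atp5k rose (log2 0.24, 0.21 and 0.23, with adjusted p = 0.0287, 0.0465 and 0.0440), while 5.12% of all genes rose in that fit. Without old replicate 3 alone, Ndufa4 rose (0.25, adjusted p = 0.0362), with 4.53% of all genes. Groups did not overlap for 2 members higher in old, among them Sdhc (13.2% of all genes), and for 1 lower, Cox6b2 (13.2%).

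Sdhc had 199.8, 208 and 197 CPM in old, against 193, 188 and 184 CPM in young (0.10 ± 0.05, adjusted p = 0.313). Cox6b2 had 3.01, 2.57 and 2.81 CPM in old, against 3.63, 4.15 and 3.44 CPM in young (-0.42 ± 0.19, adjusted p = 0.240). For both genes the 3 old libraries all lay on one side of the young ones. Cox6a1, the common form of subunit 6a, had 213, 225 and 128 CPM in old, against 191, 206 and 143 CPM in young (0.07 ± 0.18), so the spread within a group was far larger than the difference. Uqcrq, a small subunit of complex III, had 139, 148 and 101 CPM in old, against 120.2, 124 and 93.7 CPM in young (0.20 ± 0.14, adjusted p = 0.459). The highest fold change was that of Cox7a1, at 5.79, 6.29 and 3.53 CPM in old, against 4.63, 3.75 and 4.76 CPM in young (0.26 ± 0.22, adjusted p = 0.578). In complex V the smallest p belonged to Atp5j2 (0.11 ± 0.08, adjusted p = 0.447). Core members had values near 0, with Ndufs1 at -0.06 ± 0.05, Sdha at -0.01 ± 0.05, Uqcrc1 at -0.01 ± 0.07, Cox4i1 at -0.00 ± 0.08, Atp5a1 at 0.04 ± 0.05 and Atp5b at 0.06 ± 0.07. The 95% interval lay within 1.5-fold for 76 members. T lymphocyte markers (8 genes) summed to 144 to 177 CPM in old, against 27.0 to 41.2 CPM in young. Other sums differed too, with tuft cell markers at 82.3 to 83.2 CPM against 158 to 195 CPM. Enteroendocrine markers summed to 326 to 483 CPM against 229 to 259 CPM, and goblet markers to 8677 to 9078 CPM against 6577 to 7835 CPM. The goblet markers Clca1 and Spdef fell with age. Macrophage markers summed to 63.5 to 94.0 CPM in old, against 35.8 to 60.8 CPM in young. Sums of stem cell, Paneth and absorptive enterocyte markers overlapped, but single markers in these lists passed. The Paneth markers Ang4 (-1.78 ± 0.09), Mptx2 (-0.63 ± 0.11) and Defa17 (-0.36 ± 0.08) fell. Of the stem cell markers Ascl2 fell (-0.62 ± 0.11) and Rgmb rose (0.27 ± 0.06). Of the enterocyte markers Fabp1 (0.93 ± 0.14) and Krt20 (0.58 ± 0.10) rose and Anpep fell (-0.47 ± 0.06). The part of these cell types in the members' values was not tested.

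Genes that work with the members were grouped in lists by function. The 13 mRNAs encoded by the mitochondrial genome had a median of -0.05 with 0 above 0 in ES against NT in WT, and of -0.15 with 0 above 0 in ES against NT in KO, so nuclear and mitochondrial subunits had medians of opposite sign in WT. This rested on 1 library. Without WT ES replicate 1 the median in WT was 0.04 for these mRNAs (11 of 13 above 0) and 0.10 for the members. The median of the mitochondrial mRNAs was 0.23 in KO against WT in NT (12 of 13 above 0), 0.10 in KO against WT in ES (10 of 13) and 0.11 in old against young (12 of 13), and edgeR passed 0 of them in all 6 comparisons. The 3 medians that involve KO libraries rested on the KO replicate 2 libraries. Without KO NT replicate 2 the median was 0.05 in KO against WT in NT (11 of 13 above 0) and 0.04 in ES against NT in KO (8 of 13), and without KO ES replicate 2 it was -0.00 in KO against WT in ES (6 of 13). The summed CPM of the 78 nuclear members over that of these mRNAs came to 0.211 and 0.186 for KO ES, against 0.232 and 0.208 for WT ES. For KO NT it was 0.202 and 0.158, against 0.201 and 0.197 for WT NT. It was 0.214, 0.215 and 0.173 in old, against 0.223, 0.229 and 0.177 in young. The ratio was lowest in KO NT replicate 2 and in replicate 3 of old and of young, the libraries that stood apart.

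Assembly factors build the complexes but are not part of them. Of 15 tested for complex I, 4 for complex II, 6 for complex III, 18 for complex IV and 4 for complex V, edgeR passed 0 in the 5 Chrm3 comparisons, and their medians in ES against NT in WT lay between -0.06 and 0.04. In old against young 1 passed, Ndufaf4, a complex I assembly factor that fell (-0.23 ± 0.06, adjusted p = 0.0367), where 3.42% of all genes fell. This call was lost whichever of the 6 libraries was left out, with adjusted p between 0.0536 and 0.161. Proteins of the mitochondrial ribosome, which translates the mitochondrial mRNAs, had a median of -0.03 in ES against NT in WT with 25 of 78 above 0, and of 0.09 in KO against WT in ES with 59 of 78 above 0, opposite in sign to the members in both. By library, their median log2 deviation from the table mean was -0.02 and -0.06 in WT ES, against -0.02 and -0.005 in WT NT. The -0.03 therefore rested on WT ES replicate 2. In KO ES the deviation was 0.03 and 0.02, above both WT ES libraries. Cytosolic ribosomal proteins, whose transcripts are also short and abundant, had medians of -0.03 and -0.07 in those comparisons, over 79 tested genes. By library, their median log2 deviation from the table mean was 0.06 and -0.15 in KO ES and 0.05 and 0.001 in WT ES. In WT NT it was 0.06 and 0.05. The -0.03 therefore rested on WT ES replicate 2 and the -0.07 on KO ES replicate 2.

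Of 16 genes of the citric acid cycle, which feeds complexes I and II, 2 rose in ES against NT in WT (2.1% of all genes), Mdh2, the mitochondrial malate dehydrogenase (0.28 ± 0.05, adjusted p = 0.0248), and Ogdh, the first subunit of the oxoglutarate dehydrogenase (0.23 ± 0.05, adjusted p = 0.0439). The same 2 genes fell in KO against WT in ES (4.47% of all genes), which shares the WT ES libraries, Mdh2 by 0.23 with an SE of 0.05 (adjusted p = 0.0279) and Ogdh by 0.22 with an SE of 0.05 (adjusted p = 0.0316). Of 18 glycolysis genes, 4 rose in ES against NT in WT (2.1% of all genes), among them the glucose transporter Slc2a1 (0.57 ± 0.10, adjusted p = 0.0176), Ldha (0.24 ± 0.05, adjusted p = 0.0362) and Gapdh (0.23 ± 0.05, adjusted p = 0.0403), and the list's median of 0.13 was close to that of the members. In KO against WT in NT, 3 glycolysis genes rose (2.36% of all genes), Hk2 (0.31 ± 0.07), Pgk1 (0.23 ± 0.05) and Gapdh (0.21 ± 0.05). In old against young 1 glycolysis list gene fell, the lactate transporter Slc16a1 (-0.27 ± 0.05, adjusted p = 0.0120), and 1 citric acid cycle gene fell, Idh3a (-0.19 ± 0.05, adjusted p = 0.0384), where 3.42% of all genes fell.

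Of 15 regulators of mitochondrial biogenesis, Ppargc1a, the coactivator PGC-1 alpha, fell in KO against WT in ES (-0.90 ± 0.17, adjusted p = 0.0115), where 4.47% of all genes fell. Twnk, the mitochondrial DNA helicase, fell in ES against NT in WT (-0.29 ± 0.07, adjusted p = 0.0462), where 1.39% of all genes fell. In old against young Ppargc1b, the related coactivator, fell (-0.45 ± 0.08, adjusted p = 0.00496), while Gabpa (0.23 ± 0.06, adjusted p = 0.0278) and Twnk (0.24 ± 0.06, adjusted p = 0.0488) rose. Of all genes 3.42% fell and 4.42% rose with age. Gabpa overlaps the member Atp5j on the opposite strand, over 12.7% of the exon bases of Atp5j. When 1 library was left out, the call of Ppargc1b held in 6 of 6 fits, that of Ppargc1a in 6 of 8 (lost without KO ES replicate 1, adjusted p = 0.0709, or WT ES replicate 2, 0.100), and that of Slc2a1 in 5 of 8. That of Twnk in old against young held in 0 of 6, those of Gabpa and Idh3a in 1 of 6, that of Slc16a1 in 3 of 6 and that of Hk2 in 1 of 8. Those of Pgk1, of Twnk in ES against NT in WT and of Ogdh in both comparisons held in 2 of 8. Mdh2 held in 4 of 8 in ES against NT in WT and in 2 of 8 in KO against WT in ES, Ldha held in 4 of 8, and Gapdh in 4 of 8 in ES against NT in WT and 3 of 8 in KO against WT in NT.

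**Figure D5:**
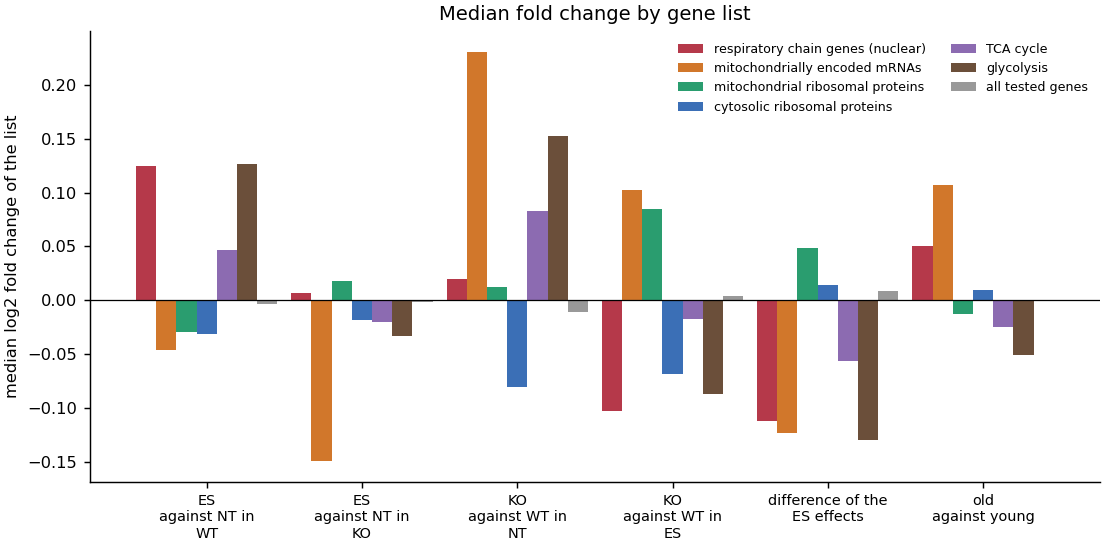
Median log2 fold change (y axis, bars from 0) of the 78 nuclear respiratory chain genes, 5 related lists and all tested genes in each comparison. In ES against NT in WT the respiratory chain genes (0.12) and glycolysis genes (0.13) are positive while the mitochondrially encoded mRNAs (-0.05) and both ribosomal lists (-0.03 each) are negative. Without WT ES replicate 1 (not drawn) the mitochondrially encoded mRNAs are at 0.04 in that comparison. The values of both ribosomal lists there rest on WT ES replicate 2.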

How the data were processed

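RNA of EGFP-sorted cells was extracted with Trizol and polyA RNA was made into strand-specific TruSeq libraries, per the labels' protocols. The authors deposited 2 tables of raw read counts per gene (55335 genes each). Build mm10 and the tool FastQC 0.11.2 appear in the submitters' processing notes. For the aligner, the counter, its strand setting and its handling of reads that match several genes no source used here gives a name or setting, and genes with near-identical copies or overlapping exons are therefore uncertain. Each table was normalised and tested by itself, and levels are CPM after TMM scaling. Genes were kept with filterByExpr, and all groups of a table shared 1 spread in edgeR 4.0.16 (R 4.3.3, quasi-likelihood test), with Benjamini-Hochberg adjustment over all 17364 genes tested in the Chrm3 table and 16807 in the ageing table. The threshold was an adjusted p of 0.05. Intervals are 95% intervals from the same fit.

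DESeq2 1.42.0, limma 3.58.1 (voom), other scalings, no filter, a replicate block, leave-one-out fits and fits restricted to 1 pair of groups were the alternatives. Shares of all genes for DESeq2 are over the genes it gave an adjusted p. The older form of the edgeR test and leaving out pairs of libraries were added after seeing the data. The procedure was tested on simulated data. Gene positions and principal transcripts came from GENCODE M21, which held 55154 of the 55335 identifiers and all 78 members. Named in each comparison were the members that passed (up to 3 per complex and direction, by smallest p), otherwise the smallest p of each complex, core subunits, paralogs, and the extreme fold changes. Of the other lists up to 3 genes that passed were named. The values of 1 member are not reported here. Ndufa1, Uqcrq, Ndufa4, Atp5k and other members named outside this rule were chosen after their values were seen. The members and lists were chosen with earlier results of these data known. Replicates of every group differed by more than counting noise, the chi-square over its degrees of freedom lying between 3.47 and 23.3.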

Additional observations from a re-analysis of the deposited data

How the results depend on the processing

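The median fold change of the members kept its sign in ES against NT in WT (0.10 to 0.14 when 1 library was left out), in KO against WT in ES (-0.15 to -0.06) and in the ES effect of KO minus that of WT (-0.17 to -0.10), but not in ES against NT in KO (-0.02 to 0.03), KO against WT in NT (-0.03 to 0.05) or old against young (-0.04 to 0.14). Counts of calls moved more. In ES against NT in WT, where edgeR passed 0, members that rose numbered 6 with DESeq2 (4.67% of all genes rose), 5 with the replicate block (3.33%), 15 with only the 2 groups compared (6.63%), 11 without KO ES and KO NT replicate 2 (5.85%), and 0 to 5 with 1 library left out. In KO against WT in NT, also 0 at first, 1 rose with DESeq2 (2.98%), 1 with the replicate block (3.11%), 1 with only the 2 groups compared (2.03%) and 0 to 1 with 1 library left out. In KO against WT in ES the 2 members that fell became 0 with no filter (1.31% of all genes fell), 4 with the replicate block (5.74%) and 0 to 3 with 1 library left out. In old against young 2 rose with the replicate block (6.37% of all genes), 3 without replicate 3 of both groups (5.12%) and 0 to 1 with 1 library left out. The cause was not tested, beyond the fewer samples of the smaller fits. Only 2 groups were compared in the ageing table, so that setting adds nothing there.

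Same-numbered libraries did not all deviate together (ageing r of -0.09, 0.34 and 0.15; for Chrm3 libraries 0.37 for KO ES with KO NT, 0.17 for WT ES with KO NT and -0.01 to 0.05 for the other 4 pairs of groups), so the numbers were not taken as pairs. Groups of 2 or 3 libraries limit the precision.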
